A study of Mus musculus with 9 samples.

Results

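A set of 10 genes that mark retinal endothelial cells or build the blood-retina barrier were followed in retinal RNA-Seq from oxygen-induced retinopathy (OIR), the mouse model of ischemia-driven retinal neovascularization. They were taken by name from the gene count table, and all 10 of the 10 names were found among its 54532 genes. Each had enough reads to be tested, as did 17540 genes in all. The members were Pecam1 and Cdh5 (endothelial identity), Cldn5, Ocln and Tjp1 (tight junctions), Mfsd2a, Slco1c1 and Abcb1a (barrier transport and the suppression of transcytosis), and Plvap and Cav1 (vesicles and fenestrae).

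The study examined 32-134D, an inhibitor of the hypoxia-inducible factors (HIFs), given into the eyes of OIR mice. In OIR, pups are kept in high oxygen, which obliterates central retinal vessels, and then return to room air, where the avascular retina becomes ischemic and new vessels grow. Whole-retina total RNA was sequenced at postnatal day (P) 17 from 9 wild-type C57BL/6 mice, 3 per group, and each mouse is taken here as 1 replicate. The control group was raised in room air and is labelled Control+DMSO (mice 1, 6 and 7). The OIR group is labelled Hypoxia+DMSO and had DMSO, the vehicle, injected into the eye once at P12 (mice 3, 5 and 6). The treated OIR group is labelled Hypoxia+32-134D (70 ng) and was injected once at P12 with the inhibitor (mice 2, 5 and 10). One protocol text, describing the 32-134D injection, stands on the records of all 9 mice, and it gives the 70 as ng/µl. The 3 mice of a group were isolated independently, and how many eyes went into each library is not given in the sources used here.

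The inner blood-retina barrier is formed by the endothelial cells of retinal capillaries. Tight junctions close the space between cells, transcytosis through caveolae is kept low, and carriers and efflux pumps select what crosses. Barrier endothelium carries MFSD2A and little PLVAP, a protein of fenestral and caveolar diaphragms, and vessels that are immature or leaky often show the reverse. In a whole retina these cells are a small minority, and fewer endothelial cells and less RNA per cell cannot be told apart.

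Libraries held 16028731 to 27213184 gene counts each, and rod photoreceptor transcripts were abundant in every one, with a mean over 10 markers of 11.2 to 11.7 log2 CPM (counts scaled to library size, on a log2 scale). A pair of libraries stood apart for these genes. Treated OIR mouse 2 drew 15.8% of its counts from crystallin genes of the lens, against at most 0.186% in the other libraries, and OIR mouse 6 had none of that excess (0.0359%). Of the 10 members, 6 had their lowest or second lowest level in OIR mouse 6 and 5 had it in treated OIR mouse 2. Values without these mice are given below for the genes that moved most with them. By Xist and Y-linked reads, 1 control, 1 OIR and 2 treated OIR mice were female.

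The RefSeq promoter table of GRCm38.p6 held 7 of the 10 genes, with 9 promoters between them. Pecam1, Cdh5 and Plvap had no entry. Those of 4 genes are shown because they belong to the gene that passed the test (Cav1), to the transcytosis suppressor with a level higher in every OIR mouse than in any control (Mfsd2a), and to a junction gene and a transporter that were lowest in the same mice (Cldn5 and Slco1c1). Each is the 250 bases before the annotated start, on the strand of the gene. Capitals mark the letters ACGTG or GCGTG, the core of the hypoxia response element, on either strand. ACGTG is also part of the CACGTG E-box.
Cav1 (chr6:17306085-17306334, plus strand): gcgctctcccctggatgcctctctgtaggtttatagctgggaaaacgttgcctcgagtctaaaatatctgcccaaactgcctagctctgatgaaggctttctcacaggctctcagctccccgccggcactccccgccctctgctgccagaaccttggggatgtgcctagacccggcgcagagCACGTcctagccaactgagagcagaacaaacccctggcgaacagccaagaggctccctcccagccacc
Mfsd2a (chr4:122961189-122961438, minus strand): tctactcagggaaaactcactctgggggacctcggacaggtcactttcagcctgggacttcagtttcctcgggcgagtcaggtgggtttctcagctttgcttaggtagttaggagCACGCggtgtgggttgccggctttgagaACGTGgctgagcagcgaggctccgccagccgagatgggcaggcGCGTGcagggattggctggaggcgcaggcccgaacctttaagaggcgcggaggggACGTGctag
Cldn5 (chr16:18776597-18776846, plus strand): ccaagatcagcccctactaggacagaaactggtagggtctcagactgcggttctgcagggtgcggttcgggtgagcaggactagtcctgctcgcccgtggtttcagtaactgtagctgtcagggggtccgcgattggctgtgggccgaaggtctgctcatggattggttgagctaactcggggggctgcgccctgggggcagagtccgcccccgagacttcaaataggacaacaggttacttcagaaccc
Slco1c1 (chr6:141524104-141524353, plus strand): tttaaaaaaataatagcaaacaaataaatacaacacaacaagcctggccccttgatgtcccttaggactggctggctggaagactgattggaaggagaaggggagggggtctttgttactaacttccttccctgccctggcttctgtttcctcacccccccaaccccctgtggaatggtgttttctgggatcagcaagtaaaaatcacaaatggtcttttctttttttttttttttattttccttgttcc
The Cav1 stretch shown held 1 match, and a second Cav1 promoter in the table (chr6:17307390-17307639) held none. The Mfsd2a stretch held 4, and the Cldn5 and Slco1c1 stretches held none. Of all 9 member promoters 4 had a match, both promoters of Ocln among them, against 38.6% of the 32851 promoters in the table. The stretches of both Ocln promoters overlap in part. The Tjp1 and Abcb1a promoters, neither with a match, start 156537 and 92986 bases from the gene start in the count table. A match is a description of the letters and was not tied to binding in these data.

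Relative to gene length, Cldn5 was the most abundant member in control retinas, at 41.1 ± 4.82 RPKM (reads scaled to gene length and library size; SD, n = 3). Cav1 (15.1 ± 0.714 RPKM) and Tjp1 (12.8 ± 1.29 RPKM) came next, and their ranges came close to each other without overlapping. Plvap, Mfsd2a, Cdh5 and Pecam1 followed between 3.14 and 3.62 RPKM and did not differ beyond the spread between mice. Abcb1a (1.89 ± 0.283 RPKM) and Slco1c1 (1.86 ± 0.322 RPKM) overlapped, and Ocln was the lowest at 1.27 ± 0.328 RPKM. In the OIR group the mean RPKM of Cav1 (33.2 ± 5.66) was next to that of Cldn5 (36.5 ± 24.6), and their ranges overlapped.

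Across the 3 comparisons, 1 of the 30 member tests passed. The test was edgeR's quasi-likelihood test on all 9 mice, and a gene passed at a Benjamini-Hochberg adjusted p below 0.05 over the 17540 genes. Between OIR and control, Cav1 rose and no other member passed, against 0.941% of all genes tested (165 genes). Between treated OIR and control no member passed, against 0.0228% of genes (4 genes). Between treated OIR and OIR no member and none of the genes passed (0%) in edgeR, although 823 genes, 2 of them members, had an unadjusted p under 0.05. Both comparisons with control share the same 3 control mice, so their values are set side by side and not counted as separate support. The median member log2 fold change was 0.17 for OIR minus control, 0.50 for treated OIR minus control and 0.39 for treated OIR minus OIR, beside 0.03, 0.01 and 0.01 over all genes tested.

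Groups that did not overlap were counted as well. In OIR, 3 of the 10 genes (Tjp1, Mfsd2a and Cav1) lay above every control mouse, against 15.9% of all genes, and 2 (Slco1c1 and Abcb1a) lay below every control mouse, against 17.2%. In treated OIR, 4 (Pecam1, Tjp1, Plvap and Cav1) lay above every control mouse, against 12.8%, and 1 (Slco1c1) lay below, against 12.2%. Plvap alone of the 10 lay higher in every treated OIR mouse than in any OIR mouse, against 3.74% of genes, and none of the 10 lay lower, against 5.39%.

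**Figure D1:**
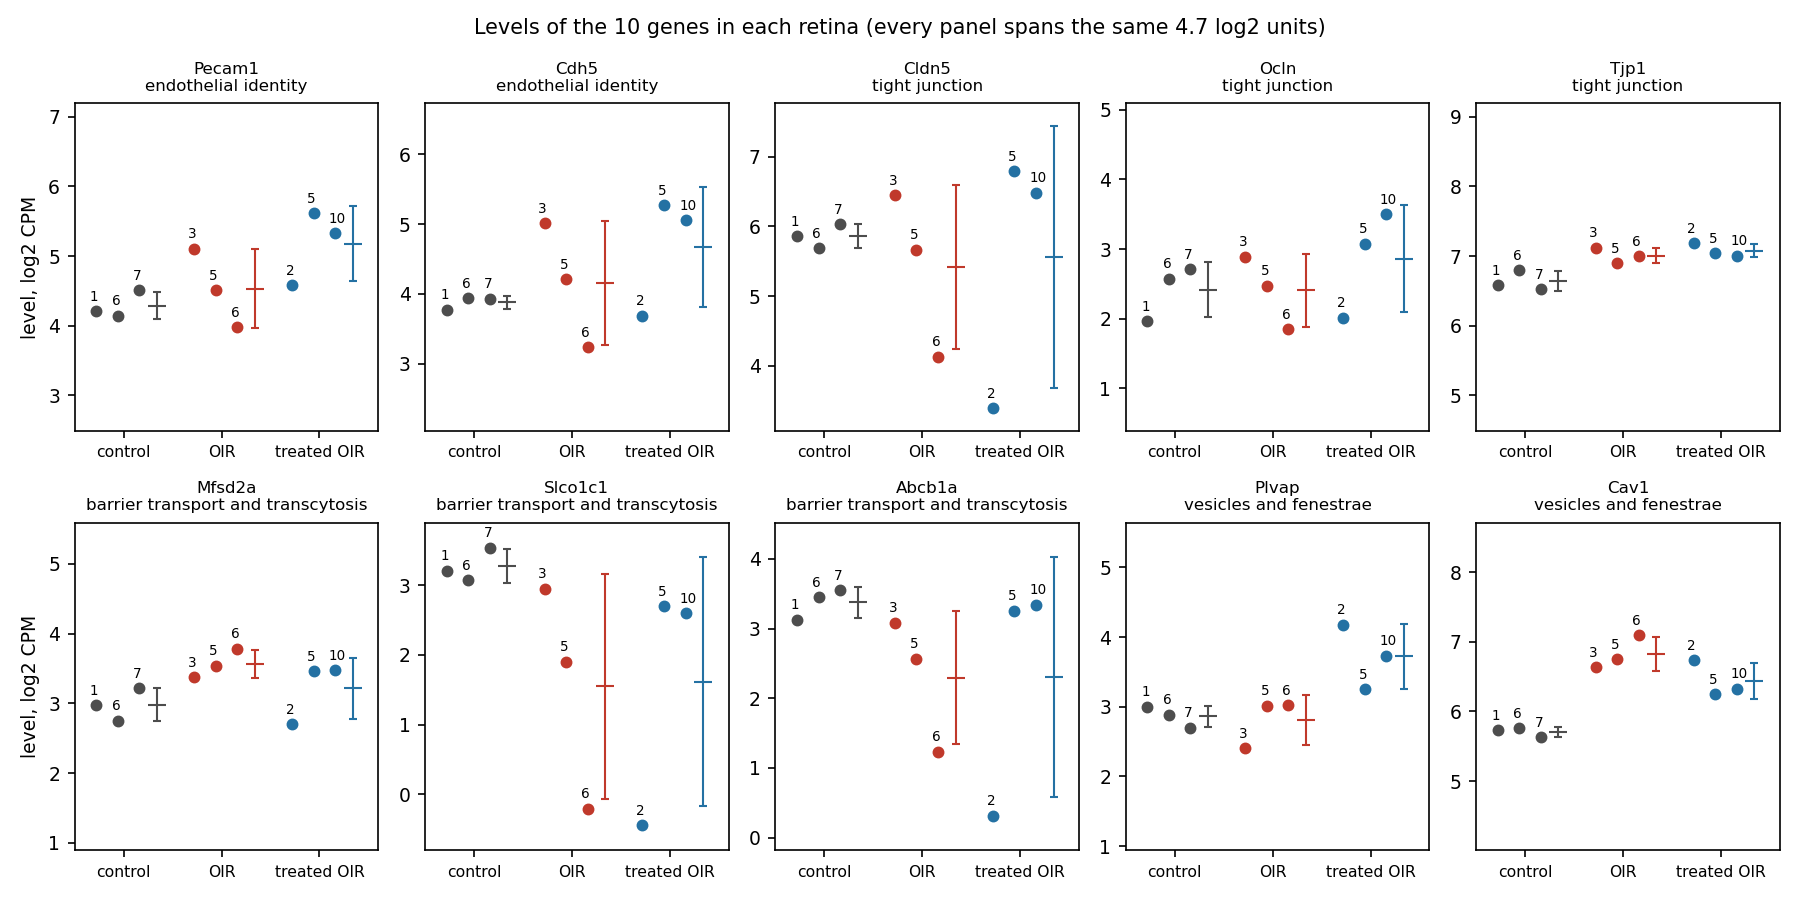
Level of each of the 10 genes in each retina (y axis, log2 CPM; points, single mice with their number; dash and bar, mean and SD of 3 mice), by group. All panels span the same number of log2 units. Cav1 separates OIR from control completely (6.63 to 7.09 against 5.63 to 5.76), whereas Cldn5, Slco1c1 and Abcb1a spread widely within OIR and within treated OIR, with OIR mouse 6 and treated OIR mouse 2 at the bottom.

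Pecam1 encodes PECAM-1 (CD31), an adhesion protein of endothelial cell contacts, and lies on chromosome 11 at 106654217 to 106750628 (minus strand; GRCm38, as for all positions of genes here). Control mice 1, 6 and 7 had log2 CPM values of 4.21, 4.14 and 4.51. The values were 5.11, 4.51 and 3.98 for OIR mice 3, 5 and 6, and for treated OIR mice 2, 5 and 10 they were 4.58, 5.62 and 5.33. This order of mice holds for every gene that follows. All 3 treated mice were above all controls, while the OIR mice lay on both sides of the controls. The edgeR log2 fold change was 0.31 ± 0.318 (SE) for OIR minus control, 0.95 ± 0.319 for treated OIR minus control (adjusted p = 0.192) and 0.64 ± 0.317 for treated OIR minus OIR (adjusted p = 0.9998). Without treated OIR mouse 2 the treated minus control value was 1.20, and without OIR mouse 6 the OIR minus control value was 0.55.

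Cdh5 encodes VE-cadherin, the adherens junction cadherin specific to endothelium (chromosome 8, 104101625 to 104144511, plus strand). Its levels in control mice, 3.77, 3.94 and 3.93 log2 CPM, were the closest together of any member apart from Cav1. In OIR it was at 5.01, 4.21 and 3.23, and in treated OIR at 3.68, 5.27 and 5.06. OIR mouse 6 and treated OIR mouse 2 were the only mice below the controls, and the other 4 mice of those groups were above them. None of the edgeR differences passed, with 0.44 ± 0.468 for OIR minus control, 0.94 ± 0.470 for treated OIR minus control (adjusted p = 0.313) and 0.50 ± 0.466 for treated OIR minus OIR. Leaving out OIR mouse 6 took the first to 0.79 and the last to 0.16, and leaving out OIR mouse 3 took the first to -0.08. Without treated OIR mouse 2, treated OIR minus OIR was 0.87.

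Cldn5 encodes claudin-5, the main claudin of blood-brain and blood-retina barrier tight junctions (chromosome 16, 18776847 to 18778262, plus strand). Levels were 5.86, 5.69 and 6.03 log2 CPM in control, 6.45, 5.67 and 4.13 in OIR, and 3.39, 6.79 and 6.48 in treated OIR. The range within OIR was 2.32 log2 units and that within treated OIR 3.40, against 0.34 within control. Treated OIR mouse 2 had 164 Cldn5 counts, whereas the other treated mice had 1807 and 1736. Group differences stayed far inside that spread, at -0.17 ± 0.739 for OIR minus control, 0.27 ± 0.738 for treated OIR minus control and 0.44 ± 0.740 for treated OIR minus OIR (adjusted p = 0.915, 0.869 and 0.9998, edgeR). Without OIR mouse 6 the OIR minus control value turned to 0.24, and without treated OIR mouse 2 the treated minus control value was 0.79.

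Ocln encodes occludin, a tight junction protein of both endothelium and epithelium (chromosome 13, 100496507 to 100552718, minus strand). It was the least abundant member per length, with levels of 1.97, 2.57 and 2.71 log2 CPM in control, 2.89, 2.47 and 1.85 in OIR, and 2.01, 3.08 and 3.50 in treated OIR. The groups overlapped in all 3 comparisons. Treated OIR minus control was 0.55 ± 0.413 and OIR minus control was 0.02 ± 0.413, neither of which passed (adjusted p = 0.491 and 0.982, edgeR). The first was 0.88 without treated OIR mouse 2 and 0.20 without treated OIR mouse 10, and the second was 0.26 without OIR mouse 6.

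Tjp1 encodes ZO-1, the scaffold that ties tight junctions to actin and that many retinal cell types use, and it spans chromosome 7 from 65296165 to 65527781 (minus strand). Unlike Cldn5 it was even within groups, at 6.58, 6.80 and 6.53 log2 CPM in control, 7.12, 6.90 and 7.0 in OIR, and 7.19, 7.04 and 7.01 in treated OIR. Every OIR and treated OIR mouse was above every control, treated OIR mouse 2 the highest of all. The differences were small and did not pass in edgeR, at 0.37 ± 0.107 for OIR minus control (adjusted p = 0.0963) and 0.44 ± 0.107 for treated OIR minus control (adjusted p = 0.125). DESeq2 on all 9 mice did pass both, with adjusted p = 0.0430 and 0.0253, and it passed 11.4% and 4.73% of all genes in these comparisons. The treated and untreated OIR groups differed by 0.07 ± 0.106.

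Mfsd2a encodes a lysophospholipid carrier of central nervous system endothelium that takes up docosahexaenoic acid and holds transcytosis down (chromosome 4, 122946850 to 122961188, minus strand). Its levels were 2.97, 2.75 and 3.22 log2 CPM in control, 3.37, 3.54 and 3.78 in OIR, and 2.70, 3.46 and 3.48 in treated OIR. The OIR mice all lay above the controls, and OIR mouse 6, the lowest in Pecam1, Cdh5 and Ocln, was the highest of all 9 mice in Mfsd2a. Which cells the Mfsd2a reads came from was not tested. OIR minus control was 0.59 ± 0.246 (adjusted p = 0.187) and treated OIR minus OIR was -0.32 ± 0.245 (adjusted p = 0.9998), neither passing in edgeR. limma-voom with quality weights passed the first at an adjusted p of 0.0409, where it passed 13.1% of all genes. Without treated OIR mouse 2, the lowest in Mfsd2a, treated OIR minus OIR was -0.08 and treated OIR minus control 0.49, against 0.27 with it.

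Slco1c1 encodes OATP1C1, the thyroxine carrier of barrier endothelium that glial cells also use, and begins at 141524368 on chromosome 6 (to 141570177, plus strand). In control retinas it stood at 3.21, 3.07 and 3.54 log2 CPM. In OIR it stood at 2.95, 1.90 and -0.21, and in treated OIR at -0.44, 2.70 and 2.60. Every OIR and every treated OIR mouse lay below every control, and the lowest mice held 17 and 10 counts against 168 to 262 in control. The edgeR differences were -1.27 ± 0.829 for OIR minus control and -1.15 ± 0.828 for treated OIR minus control, and with so wide a spread neither passed (adjusted p = 0.382 and 0.472). Without OIR mouse 6 the first was -0.78, and without treated OIR mouse 2 the second was -0.64.

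Abcb1a encodes P-glycoprotein, the efflux pump on the blood side of barrier endothelium (chromosome 5, 8660077 to 8748575, plus strand). Its sequence is close to that of Abcb1b, and how the counting treated reads that fit both is not given in the sources used here. Levels were 3.13, 3.45 and 3.55 log2 CPM in control, 3.09, 2.57 and 1.23 in OIR, and 0.31, 3.25 and 3.34 in treated OIR. OIR mice lay below all controls, mouse 3 by a small margin, and treated OIR mice 5 and 10 fell within the control range. OIR minus control was -0.92 ± 0.680 and treated OIR minus control -0.59 ± 0.677, and neither passed (adjusted p = 0.446 and 0.660, edgeR). The first value was -0.54 without OIR mouse 6, and the second was -0.08 without treated OIR mouse 2.

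Plvap encodes the plasmalemma vesicle-associated protein, found in fenestrated and immature endothelium and kept low in barrier vessels (chromosome 8, 71497765 to 71511752, minus strand). Levels were 2.999, 2.88 and 2.70 log2 CPM in control, 2.40, 3.01 and 3.02 in OIR, and 4.17, 3.25 and 3.73 in treated OIR. All treated OIR mice lay above all the others, whereas OIR and control overlapped. Treated OIR minus OIR was 0.94 ± 0.269, a 1.92-fold difference, and treated OIR minus control 0.91 ± 0.269, but neither passed in edgeR (adjusted p = 0.984 and 0.167). OIR minus control was -0.03 ± 0.269. Without treated OIR mouse 2, the highest in Plvap, the values against OIR and control were 0.71 and 0.66, and the remaining treated mice, at 3.25 and 3.73, still lay above all OIR and control mice. DESeq2 on all 9 mice passed treated OIR minus control at an adjusted p of 0.0428, where it passed 4.73% of all genes. The end of Plvap overlaps Gtpbp3 on the opposite strand (71488103 to 71499583), which held 3905 counts over the 9 mice, and whether counting used strand is not given in the sources used here.

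Cav1 encodes caveolin-1, the coat protein of caveolae, which endothelium and Müller glia both make in quantity (chromosome 6, 17306335 to 17341452, plus strand). It was at 5.73, 5.76 and 5.63 log2 CPM in control, 6.63, 6.75 and 7.09 in OIR, and 6.73, 6.24 and 6.33 in treated OIR. The OIR and treated OIR mice were all well above the controls, OIR mouse 6 being the highest and treated OIR mouse 2 within the range of the OIR mice. Cav1 rose 2.19-fold in OIR, a log2 fold change of 1.13 ± 0.157 (adjusted p = 0.0407, edgeR). Treated OIR minus control was 0.75 ± 0.157 and did not pass (adjusted p = 0.106), and treated OIR minus OIR was -0.39 ± 0.155 (adjusted p = 0.9998). Without treated OIR mouse 2 these values were 0.59 and -0.52, and the remaining treated mice, at 6.24 and 6.33, lay below every OIR mouse. Without OIR mouse 6, treated OIR minus OIR was -0.24.

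The Cav1 call lay close to the threshold while its size did not move. It was lost in 8 of 20 alternatives, at an adjusted p of up to 0.163, although with 1 mouse left out the log2 fold change ran only from 0.99 to 1.23. Of those losses, 7 came from leaving out any 1 of the control or OIR mice or treated OIR mouse 5 (adjusted p from 0.0760 to 0.163), and 1 came from adding sex to the model (adjusted p = 0.0722). In each of these 8 fits none of the genes tested passed OIR minus control (0%), so the loss was not particular to Cav1, and 2845 to 4140 genes had an unadjusted p under 0.05. Within females (1 mouse against 1) OIR minus control of Cav1 was 0.90 log2 CPM, and within males (2 against 2) it was 1.23. On the same split Tjp1 (0.54 and 0.29) and Mfsd2a (0.40 and 0.67) also kept their sign. Pecam1 (0.90 and -0.08), Cdh5 (1.24 and -0.21), Cldn5 (0.59 and -0.96), Ocln (0.93 and -0.48) and Plvap (-0.60 and 0.23) did not. Slco1c1 (-0.26 and -2.46) and Abcb1a (-0.04 and -1.60) were negative in both. The only female OIR mouse was mouse 3, so sex and that mouse cannot be told apart. Without treated OIR mouse 2 the adjusted p of Cav1 was 0.00361 in edgeR. In that fit 716 genes passed upward and 1556 downward of 18116 tested, against 76 and 89 of 17540 in the main fit. The smaller p was thus not particular to Cav1. Cav1 also passed OIR minus control in DESeq2 restricted to the groups compared and in limma-voom (which passed 15.6% and 13.1% of all genes), and it passed treated OIR minus control in DESeq2 on all 9 mice, in DESeq2 restricted to the groups compared and in limma-voom, where 4.73%, 2.19% and 5.28% of all genes passed. Pecam1 passed treated OIR minus control in limma-voom alone among the alternatives, at an adjusted p of 0.0283.

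**Figure D2:**
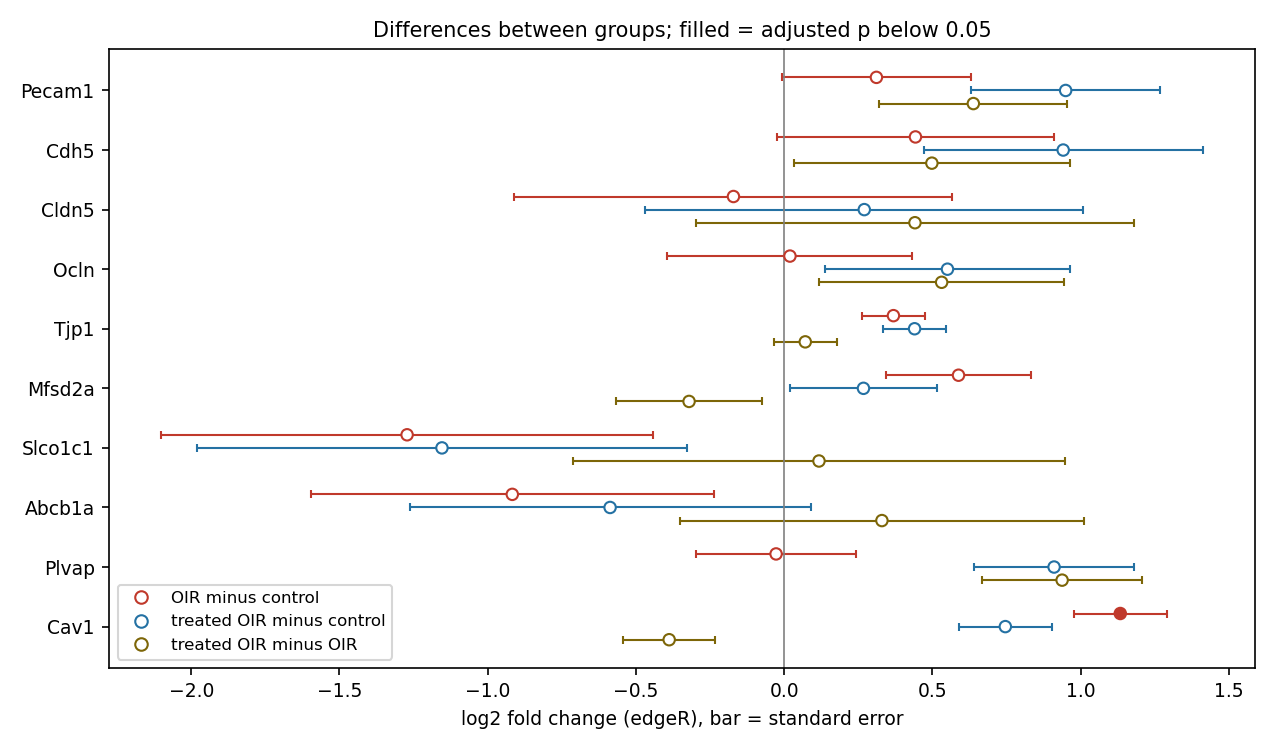
Fitted edgeR log2 fold change of each gene (x axis; bars, standard error; 3 mice per group) for the 3 comparisons. The only filled point, past an adjusted p of 0.05, is Cav1 in OIR minus control at 1.13. Bars for Cldn5, Slco1c1 and Abcb1a are the widest, and Plvap stands near 0.9 in both comparisons that hold the treated group and near 0 in OIR minus control.

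Expressing 5 genes relative to the mean log2 CPM of Pecam1 and Cdh5 in the same retina sets them against endothelial transcripts of that retina. Ocln, Tjp1 and Abcb1a were not put on this scale, so a low relative level is not shown to be particular to any of the 5. Abcb1a, before any such scaling, also lay below every control in OIR. On this scale 3 mice against 3 cannot reach an exact permutation p below 0.1 (two-sided), and p-values were adjusted over 10 tests. Slco1c1 was at -0.78, -0.97 and -0.68 in control, -2.11, -2.46 and -3.82 in OIR, and -4.58, -2.75 and -2.59 in treated OIR. Every OIR retina thus held less Slco1c1 per Pecam1 and Cdh5 than any control, by a mean of -1.98 log2 units (exact permutation p = 0.1, adjusted 0.5). The gap was -1.47 without OIR mouse 6. Treated OIR minus OIR was -0.51 (exact permutation p = 0.5, adjusted 0.8).

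Cldn5 on the same scale was at 1.87, 1.65 and 1.81 in control, 1.39, 1.31 and 0.52 in OIR, and -0.74, 1.35 and 1.29 in treated OIR. The OIR mice again lay below all controls, by -0.70 log2 units on average (exact permutation p = 0.1, adjusted 0.5) and by -0.43 without OIR mouse 6. In the 4 mice of both OIR groups other than OIR mouse 6 and treated OIR mouse 2, the relative level was 1.29 to 1.39. The mice left out were the lowest in Cldn5 on this scale, so the narrowness of that span was set in part by the choice. Mfsd2a was at -1.02, -1.29 and -0.998 in control, -1.69, -0.82 and 0.18 in OIR, and -1.43, -1.98 and -1.71 in treated OIR. Treated OIR mice were below all controls in relative Mfsd2a, a comparison that was not tested, and treated OIR minus OIR was -0.93 (exact permutation p = 0.2, adjusted 0.6).

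Plvap and Cav1 showed no separation on this scale. Relative Plvap was at -0.99, -1.16 and -1.52 in control, -2.66, -1.35 and -0.59 in OIR, and 0.04, -2.19 and -1.46 in treated OIR. Treated OIR minus OIR in relative Plvap was 0.33 (exact permutation p = 0.8, adjusted 0.8), and Pecam1 and Cdh5 themselves were higher in treated mice 5 and 10. Relative Cav1 was at 1.73, 1.72 and 1.41 in control, 1.57, 2.39 and 3.48 in OIR, and 2.60, 0.80 and 1.13 in treated OIR, and the groups overlapped in both comparisons (OIR minus control 0.86, exact permutation p = 0.3, adjusted 0.6).

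**Figure D3:**
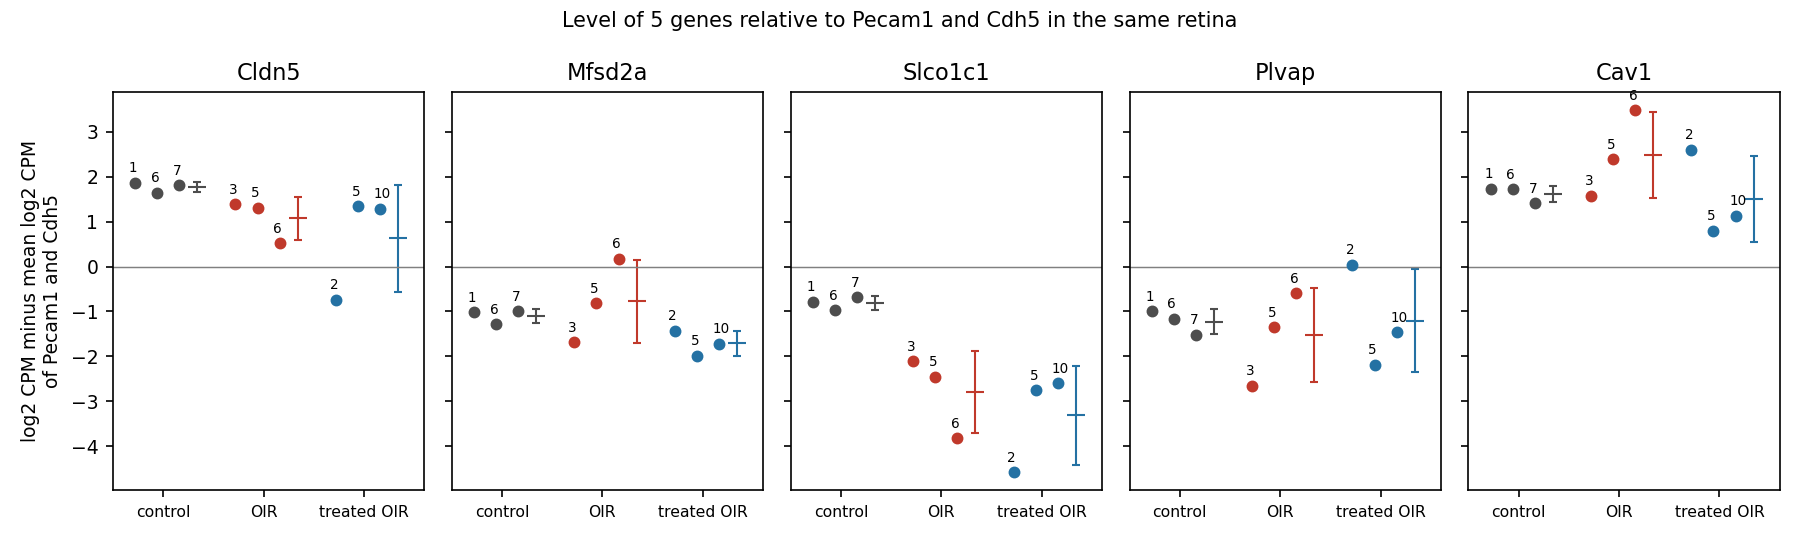
Level of 5 genes minus the mean level of Pecam1 and Cdh5 in the same retina (y axis, log2 units; points, single mice with their number; dash and bar, mean and SD of 3 mice). Slco1c1 and Cldn5 lie lower in every OIR mouse than in any control (exact permutation p = 0.1, the smallest that 3 against 3 allows), and Plvap and Cav1 overlap between groups.

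The genes whose log2 CPM followed a member most closely over the 9 mice are given by name, as a description. For Pecam1 these were Cdc42ep3, Trp53i11, Cd34, Vwa1 and Adgrl4, with Pearson r from 0.944 to 0.963. For Mfsd2a they were Wdr24, Egr1, Zfp747, Ccdc13 and Etfbkmt (r from 0.885 to 0.983), and for Plvap they were Ptgfrn, Stx17, Jakmip3, Armcx6 and Cfl2 (r from 0.900 to 0.931). For Cav1 they were Tpr, Hfe, Tmem26, Ttyh2 and Slc1a3 (r from 0.978 to 0.982). The 9 points share libraries and groups. Slc1a3, the glutamate carrier of Müller glia, was also the only 1 of 8 Müller markers to pass OIR minus control (0.95 ± 0.165, adjusted p = 0.0447, edgeR), a call that was lost in 9 of 20 alternatives.

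Further genes of the same functions were counted from lists. Of 22 other endothelial identity genes, Kdr, the main VEGF receptor, rose in OIR (1.10 ± 0.169, adjusted p = 0.0407, edgeR) and was higher in all OIR mice (7.81, 7.69 and 8.13 log2 CPM) than in control (6.72, 6.96 and 6.66). No other gene of that list passed in any comparison, and the Kdr call was lost in the 8 alternatives in which no gene passed. The list's median log2 fold change was 0.17, 0.43 and 0.38 for OIR minus control, treated OIR minus control and treated OIR minus OIR, with 16, 21 and 18 of 22 genes above 0. Its mean level, like that of the 10 members, was lowest in OIR mouse 6 (-0.72 log2 units against the control mean) and treated OIR mouse 2 (-0.45), and highest in treated OIR mice 5 and 10 (0.88 and 0.87). Kdr did not follow this mean, and OIR mouse 6 had the highest Kdr of any mouse (8.13 log2 CPM). The same mouse was highest in Flt1 of this list (6.84), in Cav1 (7.09) and in the Müller marker Slc1a3 (8.61). Which cells the Kdr reads came from was not tested.

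None of 16 other tight junction genes, 10 adherens junction genes, 19 other transporters, 11 other genes of caveolae and transcytosis, or 12 genes of endothelial barrier transcription and Wnt signalling passed in any comparison with edgeR. The genes with the smallest unadjusted p in OIR minus control were all positive. In the junction lists these were Ildr2, a tricellular junction protein (1.02 ± 0.257), Cgnl1, or paracingulin (0.42 ± 0.114), Ctnna1, or alpha-catenin (0.46 ± 0.0998), and Cdh2, or N-cadherin (0.87 ± 0.193). In the others they were Slc40a1, the iron exporter ferroportin (1.54 ± 0.383), Abcg2, an efflux pump (0.48 ± 0.141), Cavin1 and Ehd2, both of caveolae (0.63 ± 0.159 and 0.42 ± 0.132), and Apcdd1, a Wnt inhibitor (0.80 ± 0.215). Their adjusted p ran from 0.0608 to 0.113 in edgeR, and all 9 were higher in every OIR mouse than in any control, against 15.9% of all genes. They were picked for a small p in that comparison, so that count was set by the choice. The adherens junction list also held 2 genes, and the transporter list 1, that were lower in every OIR mouse than in any control (17.2% of all genes).

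The lists did not move as 1 block. The other tight junction list lay above the control mean in every OIR and treated OIR mouse (0.22 to 0.61 log2 units), OIR mouse 6 being the highest, but OIR mouse 3 and treated OIR mouse 10 were no higher than control mouse 6 (0.26). The other caveolae list lay above every control in all 6 (0.22 to 0.53, against at most 0.015 in control). Its genes were uneven. Their OIR minus control log2 fold changes ran from -0.40 (Cavin2) to 1.43 (Aplnr, the apelin receptor), with 10 of 11 above 0 and a median of 0.26. Cav2, Ehd4 and Dnm2 were at 0.21, 0.16 and 0.13. Pacsin3 was at 5.87 log2 CPM in treated OIR mouse 2, against 3.94 to 4.28 in control. Aplnr was at 2.22, 5.25 and 5.45 in treated OIR, against 2.46 to 3.04 in control. Gpihbp1 was near the floor, at most 0.47 log2 CPM in any mouse. The list mean thus rests in part on a few genes. The transporter list and the transcription and Wnt list were below the control mean in OIR mouse 6 (-0.21 and -0.33) and treated OIR mouse 2 (-0.42 and -0.31) and above it in the other 4.

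**Figure D4:**
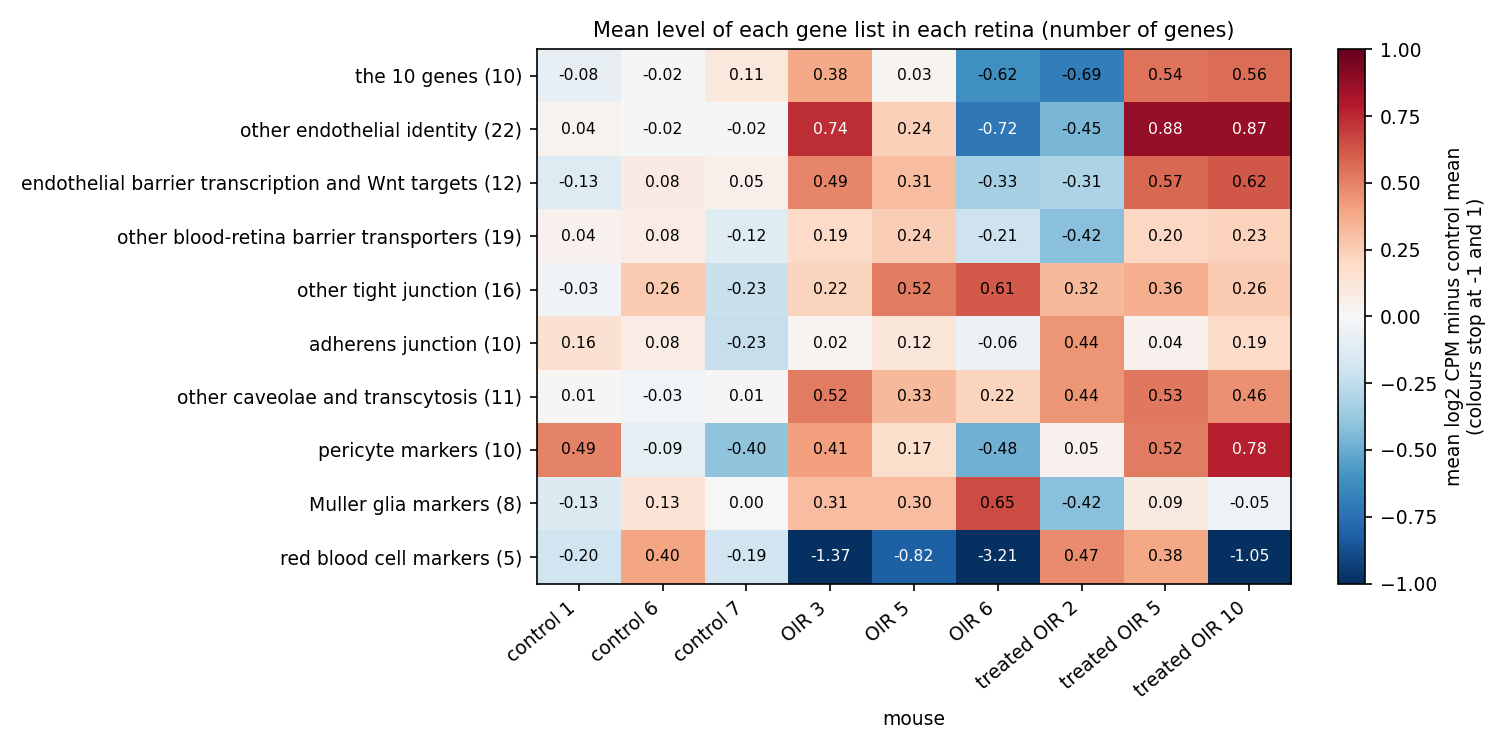
Mean log2 CPM of each gene list in each retina minus its mean over the 3 control mice (cells and colours; the number of genes is in parentheses; colours stop at -1 and 1). The 10 genes and the other endothelial identity genes lie below 0 in OIR mouse 6 and treated OIR mouse 2 and are highest in treated OIR mice 5 and 10, whereas the other tight junction and caveolae lists are above 0 in all 6 mice of the OIR groups.

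Markers of other cells that a retina preparation can hold moved with some of these values, and their part in them was not tested. The mean of 12 lens markers was 11.5 log2 CPM in treated OIR mouse 2 and at most 4.09 in any other mouse, and the TMM scaling factor of that mouse was 0.852 (0.921 to 1.06 in the others). The mean of 10 pericyte markers was 3.40 in OIR mouse 6, the lowest of all 9, and 3.92 in treated OIR mouse 2, within the control range of 3.47 to 4.37. The single markers of treated OIR mouse 2 were mixed. Rgs5, Kcnj8, Abcc9 and Vtn lay below every control (5.56, 1.94, 2.84 and 9.47), Notch3 and Des lay above (3.82 and 2.34), and the rest were within the control range. The mean of 5 red blood cell markers was 0.0856 in OIR mouse 6 and 1.93 and 2.48 in OIR mice 3 and 5, against 3.09 to 3.69 in control. The mean of 8 Müller markers was 8.83, 8.82 and 9.17 in OIR, above the control range of 8.38 to 8.65, and was lowest of all in treated OIR mouse 2 (8.10). The mean of 8 microglia markers was 3.35 to 3.44 in treated OIR, below the OIR range of 3.98 to 4.77 and within the control range of 3.26 to 4.79. Between treated OIR and OIR, 7 of the 8 were lower in every treated mouse than in any OIR mouse, against 5.39% of all genes, with a median log2 fold change of -1.16, and all 8 Müller markers were below 0 (median -0.37). In that comparison no gene of any kind passed in edgeR, while DESeq2 on all 9 mice passed 19 genes upward and 14 downward of 17460 tested. In all 3 comparisons, of 8 microglia, 10 pigment epithelium, 10 rod and 4 corneal and conjunctival markers none passed in edgeR, as was so for the pericyte, lens and red blood cell markers.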

How the data were processed

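Retinal RNA-Seq counts of 9 mice were used. The authors deposited whole-number read counts per gene with gene positions and lengths. The submitters' processing notes name CASAVA and HISAT. Their versions, the counting tool and the use of strand are not given in the sources used here. GENCODE M21 holds 54495 of the gene identifiers, 53548 of them at the identical GRCm38 position, so that build is used.

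The members and gene lists were chosen with earlier results of these data known. Named genes were the 10 members, the 5 genes most correlated with each of Pecam1, Mfsd2a, Plvap and Cav1 (mean log2 CPM of at least 1), and, per list, genes that passed (at most 3) or else those with the smallest unadjusted p in OIR minus control (2 per list). One gene that this rule names is not reported here.

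Counts were filtered with filterByExpr, scaled by TMM and fitted with edgeR 4.0.16 (glmQLFit, glmQLFTest, R 4.3.3), 1 mean per group, no covariates. Log2 CPM used a prior count of 2, and RPKM used the deposited gene lengths. Relative levels were compared by exact permutation (scipy 1.17.1). Scripts were tested on simulated data. Alternatives were DESeq2 1.42.0, limma 3.58.1 (voom with quality weights), other scalings and filters, edgeR on the groups compared, sex as a covariate, leaving out each mouse, and a robust edgeR fit, the last chosen after seeing the data. Sex was read from Xist and Y-linked counts and used as a covariate and for the within-sex differences of the members. Counts limit precision most for Slco1c1 (10 counts at the lowest).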

Additional observations from a re-analysis of the deposited data

How the results depend on the processing

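For OIR minus control, 1 member passed. The count was 2 with DESeq2 on all 9 mice and with limma-voom, which passed 11.4% and 13.1% of all genes. It was 0 with sex as a covariate, and 0 to 1 when each mouse was left out, with no gene of any kind passing in the former and in 7 of the 9 latter fits. For treated OIR minus control no member passed, while 3 did with DESeq2 on all 9 mice, 1 with DESeq2 on the groups compared and 2 with limma-voom (4.73%, 2.19% and 5.28% of all genes). For treated OIR minus OIR, 0 passed throughout. The causes were not tested.

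Of 200 alternative fold changes per comparison, 9, 1 and 7 turned in sign, none of them past the threshold. In OIR minus control, leaving out each mouse gave -0.024 to 0.55 for Pecam1, -0.079 to 0.79 for Cdh5, -0.77 to 0.24 for Cldn5, -0.25 to 0.26 for Ocln and -0.13 to 0.15 for Plvap. Ocln was -0.034 with limma-voom and Plvap 0.035 with total counts alone. In treated OIR minus control, Cldn5 ran from -0.22 to 0.79. In treated OIR minus OIR, Cldn5 ran from -0.051 to 1.05, Slco1c1 from -0.38 to 0.98 and Abcb1a from -0.048 to 0.86, and Tjp1 was -0.029 with total counts alone.

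Relative levels turned in sign when a mouse was left out for Mfsd2a in OIR minus control (-0.15 to 0.78, negative without OIR mouse 6) and Plvap in OIR minus control (-0.78 to 0.26, positive without OIR mouse 3). In treated OIR minus OIR they did so for Cldn5 (-0.80 to 0.25) and Slco1c1 (-1.03 to 0.12), both positive without treated OIR mouse 2, and for Plvap (-0.29 to 0.82), negative without treated OIR mouse 2 or OIR mouse 3.

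No paired analysis was made, because the labels give no link between mice of different groups. An equal mouse number in different groups is not described as a pair.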

Other observations

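Slco1a4, which encodes a second organic anion carrier of barrier endothelium, was picked out after its values were seen, because it resembled Slco1c1. Its log2 CPM was 4.27, 4.44 and 4.32 in control, 2.73, 2.77 and -0.21 in OIR, and 1.33, 3.12 and 3.16 in treated OIR. Every OIR and treated OIR mouse lay below every control, as for Slco1c1, and OIR mouse 6 and treated OIR mouse 2 were again the lowest of their groups. The edgeR log2 fold change was -2.11 ± 0.694 for OIR minus control and -1.61 ± 0.681 for treated OIR minus control, and neither passed (adjusted p = 0.121 and 0.254).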
